A study of Mus musculus with 18 samples.

Results

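The sperm flagellum and axoneme genes are 43 listed genes whose products build, power or coat the sperm tail. They were chosen by name from a list of outer dense fibre, fibrous sheath, tektin, dynein, central pair, transport, channel and midpiece genes. Of the 43, 38 had a named probe on the array and 34 passed the detection filter, among 10798 genes tested in all. No probe was named for Fscb, Tekt2, Tekt4, Meig1 or Atp1a4. The probes for Ropn1l, Dnah1, Spag17 and Spef2 stayed below the filter, so nothing can be said of these 9 genes.

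The sperm tail is built around the axoneme, a ring of microtubule doublets around a central pair, along which dynein arms slide the doublets to bend the tail. Mammalian sperm wrap this core in outer dense fibres and, along most of the tail, a fibrous sheath, while mitochondria coil around the midpiece. Much of this assembly takes place in spermatids, the haploid cells that follow meiosis in the testis. Germ cell development depends on Sertoli cells, which carry the FSH receptor (Fshr), and on testosterone from Leydig cells, which carry the LH receptor (Lhr).

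The study asked how FSH and LH signals act alone and together on gene expression in the testis. Total RNA of whole testis was hybridised to 18 Illumina bead arrays. All mice were 12 weeks old and from an FVB/N x C57/BL6 cross. Of the groups, 5 arrays came from Fshr mutant/Lhr null mice (called double mutant here), 5 from Lhr null mice, 4 from Fshr mutant mice and 4 from wild type mice; the table headers write the Fshr mutation as Fshr-CAM, and the sources used here name neither its promoter nor the cells that carry it. Nothing in the labels says that the arrays of a group are separate animals, so a p-value measures the spread between these arrays, which may in part be technical.

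Each array detected 15482 to 18950 of 45281 probes. Each probe was read by a median of 40 to 43 beads. The number of arrays per group limits the precision. Fshr itself read 8.47 to 8.77 on the Fshr mutant arrays and 7.60 to 8.37 on the Lhr null arrays. Signal above the wild type range of 5.17 to 5.88 was thus not limited to arrays with the Fshr mutation. On 4 double mutant arrays Fshr read 8.48 to 9.27. On 1 array, the one labelled Fshr mutant/Lhr null replicate 2, it read 5.71, within the wild type range. The mean log2 level of 5 Leydig cell genes was 8.97 on that array and 7.10 to 7.38 on the other 4 double mutant arrays. That array goes against its label. Lhcgr, the gene of the LH receptor, was not analysed here. Lhr null replicate 1 also stood apart. The mean log2 level of the 34 flagellum genes was 10.36 on that array and 9.70 to 9.95 on the other 4 Lhr null arrays. Values without each of these 2 arrays are given together after the role groups.

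Levels are log2 intensities after background correction and quantile normalization across arrays, with the probe of highest mean standing for a gene, and differences are between group means, with the standard error (SE) of the fitted model. A gene was called where the Benjamini-Hochberg adjusted p of limma's test over all 10798 genes was below 0.05.

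Flagellum genes were mostly lower in Lhr null testes than in wild type testes, and mostly higher in double mutant testes than in Lhr null testes. Against wild type, 25 of 34 fell in Lhr null testes and 2 rose, beside 27.0% of all genes called lower and 44.2% called higher. Against Lhr null, 28 of 34 rose in double mutant testes and 1 fell, beside 29.3% of all genes called higher and 45.0% called lower. The median log2 difference of the 34 genes was -0.80 for Lhr null minus wild type, against 0.21 for all genes tested, and 1.09 for double mutant minus Lhr null, against -0.21 for all genes. Both comparisons use the same 5 Lhr null arrays. Both counts include Spa17, which was detected on 0 of those arrays. Leaving out the array labelled as Fshr mutant/Lhr null replicate 2, the second comparison again called 28 higher and 1 lower, with a median of 1.10. Without Lhr null replicate 1, the first comparison called 27 lower and 2 higher, with a median of -0.91. In whole testis RNA, fewer spermatids and less RNA per spermatid cannot be told apart.

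**Figure D1:**
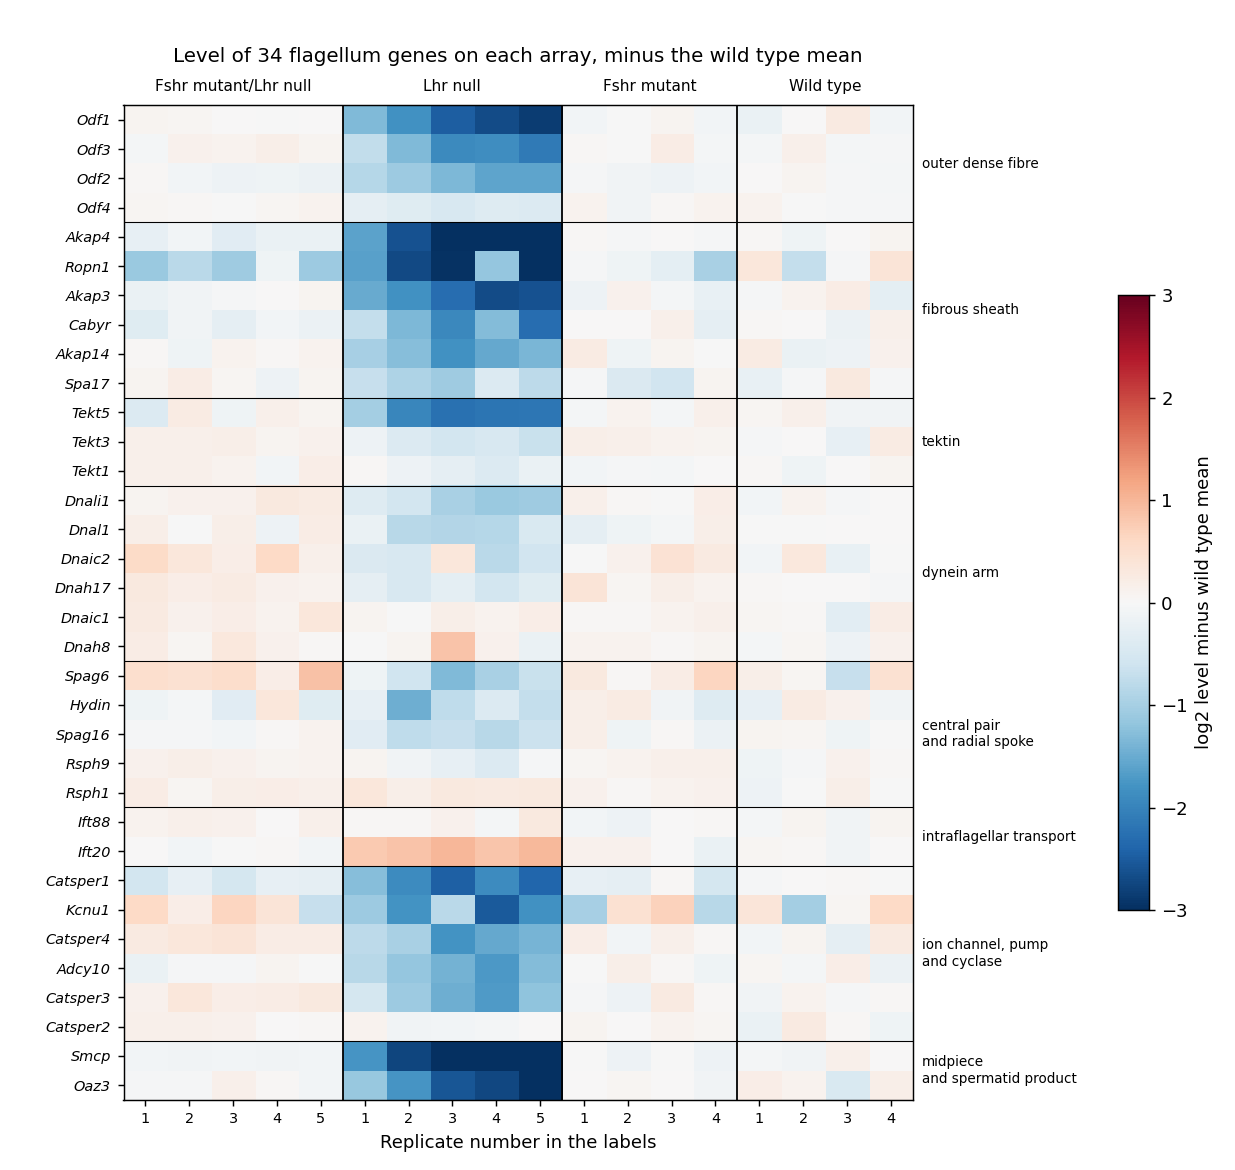
Log2 level of each of the 34 flagellum genes (rows, grouped by role) on each of the 18 arrays (columns, by group), minus the gene's wild type mean, with blue lower and red higher; the colour scale ends at a difference of 3. Blue fills most rows of the 5 Lhr null arrays, least so for replicate 1, while Ift20 is red there.

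The upstream sequences of 4 genes are shown because they mark the ends of the response: Smcp and Akap4 had the largest fall, Tekt5 the largest among tektins, and Ift20 rose. They are the 250 bases before the RefSeq transcript start on build GRCm38.p6, at chr3:92589074-92589323 (minus strand) for Smcp, chrX:7067265-7067514 and chrX:7067960-7068209 (plus strand) for the starts of Akap4, chr16:10395456-10395705 (minus strand) for Tekt5 and chr11:78536111-78536360 (plus strand) for Ift20. Each is written 5′ to 3′ on its gene's strand, and capitals mark every CG dinucleotide.
Smcp: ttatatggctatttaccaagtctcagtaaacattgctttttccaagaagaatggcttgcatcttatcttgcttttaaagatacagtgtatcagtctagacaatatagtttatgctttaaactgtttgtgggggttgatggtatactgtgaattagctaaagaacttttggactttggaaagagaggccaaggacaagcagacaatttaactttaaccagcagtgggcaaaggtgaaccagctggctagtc
Akap4 (first start): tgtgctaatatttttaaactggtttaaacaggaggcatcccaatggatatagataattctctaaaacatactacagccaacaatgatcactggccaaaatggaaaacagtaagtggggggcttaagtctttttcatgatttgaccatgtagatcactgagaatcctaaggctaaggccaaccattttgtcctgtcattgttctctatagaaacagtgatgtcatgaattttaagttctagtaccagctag
Akap4 (second start): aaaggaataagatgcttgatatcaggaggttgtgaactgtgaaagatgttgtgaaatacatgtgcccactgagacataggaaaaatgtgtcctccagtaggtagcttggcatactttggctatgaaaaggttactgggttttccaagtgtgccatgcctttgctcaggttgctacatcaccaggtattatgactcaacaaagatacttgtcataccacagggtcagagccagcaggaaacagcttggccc
Tekt5: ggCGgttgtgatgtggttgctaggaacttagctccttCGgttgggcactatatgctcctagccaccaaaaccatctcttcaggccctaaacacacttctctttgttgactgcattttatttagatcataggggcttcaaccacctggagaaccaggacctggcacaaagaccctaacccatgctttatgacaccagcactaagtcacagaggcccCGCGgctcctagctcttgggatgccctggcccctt
Ift20: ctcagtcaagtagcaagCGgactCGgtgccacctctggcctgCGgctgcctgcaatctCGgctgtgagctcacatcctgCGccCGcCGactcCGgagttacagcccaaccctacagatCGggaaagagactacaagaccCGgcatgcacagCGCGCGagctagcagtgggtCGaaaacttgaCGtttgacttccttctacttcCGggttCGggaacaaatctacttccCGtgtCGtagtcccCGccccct
The Smcp window and both Akap4 windows held 0 CG dinucleotides, Tekt5 held 4 and Ift20 held 20. The median count was 6 over all 32851 RefSeq windows of this length and 15 over the 8805 tested genes with a window.

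The RefSeq table held windows for 28 of the 34 tested flagellum genes, taking the mean count over a gene's windows. Odf1, Cabyr, Rsph1, Catsper1, Kcnu1 and Oaz3 had none in it. Among the 20 matched genes called lower in Lhr null testes, the median CG count was 4, in a range of 0 to 28.5. Among the 8 others it was 14, in a range of 10 to 35. The 6 matched genes with the largest fall, Smcp, Akap4, Ropn1, Akap3, Tekt5 and Odf3, held 0 to 4. Across the 28 genes Spearman's rho between CG count and log2 difference was 0.686 and Pearson's r was 0.614, while across those 8805 tested genes rho was 0.239 and r was 0.257. These are descriptions across genes, which share the same arrays and the base composition of their surroundings and are not independent replicates. Odf2, with 28.5 on average over 4 windows, fell by 1.29 and lies off this trend.

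CREM, a spermatid activator, and its relatives bind cAMP response elements. The full element TGACGTCA, searched on both strands, was found in 0 of 47 windows of 37 listed flagellum genes and in 1.55% of all windows. The shorter TGACG, which is part of the full element, was found in 7 of the 47 windows (14.9%), of Catsper2, Ift20, Meig1, Odf2 and Tekt1, and in 17.8% of all windows. No match says only that these letters are not in these windows.

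Outer dense fibres stiffen and protect the sperm tail. All 4 tested genes of this group fell in Lhr null testes, with differences of -2.23 to -0.38 from wild type. This count and those of the role groups below stand beside 27.0% lower and 44.2% higher for all genes. Odf1, a small heat shock protein family member and a main fibre protein, changed most. Odf1 had log2 levels of 14.52, 14.50, 14.43, 14.41 and 14.43 on the double mutant arrays and 13.10, 12.60, 11.96, 11.74 and 11.58 on the Lhr null arrays. It had 14.34, 14.41, 14.52 and 14.34 on the Fshr mutant arrays and 14.22, 14.43, 14.70 and 14.36 on the wild type arrays. The Lhr null arrays lay below all others, and the other 3 groups overlapped. The difference from wild type was -2.23 ± 0.22 (SE), a 4.7-fold lower level (adjusted p = 1.15e-07), and double mutant minus Lhr null was 2.26 ± 0.21 (adjusted p = 3.95e-08). Odf4, a membrane protein of the tail, changed least. Its log2 levels were 13.43, 13.41, 13.34, 13.42 and 13.47 on the double mutant arrays and 13.09, 13.01, 12.89, 12.98 and 12.95 on the Lhr null arrays. They were 13.47, 13.27, 13.40 and 13.47 on the Fshr mutant arrays and 13.46, 13.36, 13.32 and 13.32 on the wild type arrays. The Lhr null range again did not overlap any other group, though the gap was small. The Lhr null minus wild type difference was -0.38 ± 0.07 (adjusted p = 0.000169), and double mutant minus Lhr null was 0.43 ± 0.07. Odf3 (-1.59 ± 0.20) and Odf2 (-1.29 ± 0.12) fell by amounts between these. The size for Odf4 varied with processing and probe. Over settings that leave out no single array it ran from -0.88 to -0.37. The dimmest of its probes read 9.37 to 10.03 on Lhr null and 10.32 to 10.66 on wild type arrays.

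Odf2 also encodes a centrosomal protein of dividing cells besides its fibre protein, and its probes differed. The 4 probes designed on NM_013615 were lower in Lhr null testes by 1.05 to 2.24, each called among single probes (27.5% of all 19076 probes were called lower). A probe designed on AK037468 and a probe designed on BC057001 had differences of -0.05 and -0.04 (adjusted p = 0.688 and 0.855). The AK037468 probe was detected on all 18 arrays and the BC057001 probe on 6. Which transcripts these probes read was not tested.

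**Figure D2:**
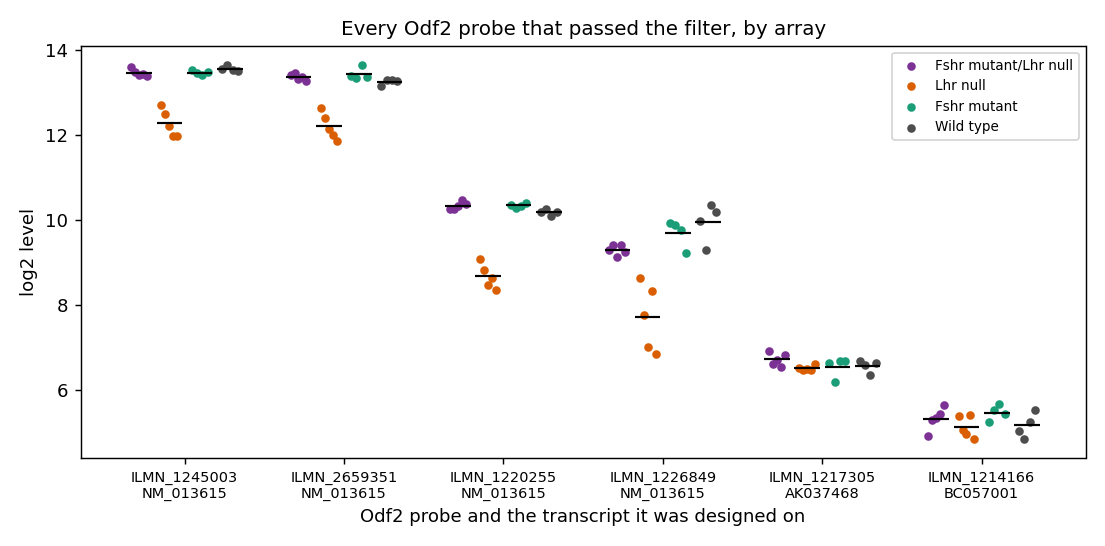
Log2 level (vertical axis) of the 6 Odf2 probes that passed the filter (horizontal axis, with the transcript each was designed on); points are arrays coloured by group, left to right double mutant, Lhr null, Fshr mutant and wild type, and lines are group means. The Lhr null arrays sit below the other groups on the 4 NM_013615 probes and among them on the AK037468 and BC057001 probes.

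The fibrous sheath runs along the principal piece and anchors signalling and glycolytic enzymes. All 6 tested genes fell in Lhr null testes, with a median of -1.85, though Spa17 among them was detected on no Lhr null array. Akap4, the main sheath protein, which anchors protein kinase A, fell most. Across arrays it read 12.49, 12.64, 12.38, 12.54 and 12.53 on the double mutant arrays and 11.12, 10.12, 9.74, 9.66 and 9.36 on the Lhr null arrays. It read 12.76, 12.70, 12.74 and 12.69 on the Fshr mutant arrays and 12.76, 12.60, 12.74 and 12.81 on the wild type arrays. No Lhr null array reached the range of another group, and Lhr null replicate 1 was the highest of its group. Lhr null minus wild type was -2.73 ± 0.23, 6.63-fold lower (adjusted p = 2.16e-08), and without Lhr null replicate 1 it was -3.01. Double mutant minus Lhr null was 2.51 ± 0.22 (adjusted p = 1.97e-08). The double mutant levels overlapped wild type, with a difference of -0.21 ± 0.23 (adjusted p = 0.678). The 4 Akap4 probes that passed the filter differed by -2.73 to -3.53 between Lhr null and wild type testes.

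Ropn1, a sheath protein with a protein kinase A docking domain (-2.46 ± 0.41), Akap3, the other main sheath anchor (-2.18 ± 0.19), Cabyr, a calcium-binding sheath protein (-1.51 ± 0.21) and Akap14 (-1.40 ± 0.14) fell as well. Ropn1 had the widest spread of these, and its double mutant level differed from wild type by -0.84 ± 0.41 (adjusted p = 0.316); with arrays weighted by their quality this became -1.08 (adjusted p = 0.0357). Leaving out the array labelled as Fshr mutant/Lhr null replicate 2 it was -0.85 (adjusted p = 0.368). Spa17, a sperm surface and sheath protein, was the gene closest to background. Its levels were 5.60, 5.74, 5.58, 5.37 and 5.62 on the double mutant arrays and 4.85, 4.61, 4.46, 5.11 and 4.74 on the Lhr null arrays. They were 5.50, 5.09, 4.94 and 5.60 on the Fshr mutant arrays and 5.32, 5.48, 5.82 and 5.50 on the wild type arrays. The Lhr null arrays lay below the double mutant and wild type arrays and overlapped the Fshr mutant arrays. Spa17 was detected on 3 of 5 double mutant, 0 of 5 Lhr null, 1 of 4 Fshr mutant and 2 of 4 wild type arrays. Spa17 was called lower in Lhr null than in wild type testes by at least 1.18-fold (adjusted p = 0.000169), and higher in double mutant than in Lhr null testes by at least 1.23-fold (adjusted p = 4.19e-05). These bounds compare the brighter group's mean with a floor on the Lhr null arrays. That floor is the smallest signal of any detected probe or, where larger, that of Spa17. The brighter group's mean includes arrays on which Spa17 was not detected either, so neither value is a firm lower limit. Spa17 passed the filter only through arrays of the other groups. Both calls rest on Lhr null signal that was not detected.

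Tektins are filament proteins inside the doublet microtubules, and the 3 tested genes did not move by the same amount. Tekt5, found in the sperm tail, changed most. It had log2 levels of 8.53, 9.19, 8.81, 9.10 and 9.03 on the double mutant arrays and 7.92, 6.98, 6.70, 6.75 and 6.77 on the Lhr null arrays. Its levels were 8.90, 9.05, 8.88 and 9.10 on the Fshr mutant arrays and 8.99, 9.09, 8.85 and 8.85 on the wild type arrays. Lhr null replicate 1 stood above the other 4 arrays of its group and below every array of the other groups. The gene differed between Lhr null and wild type testes by -1.92 ± 0.20 (adjusted p = 1.69e-07), and double mutant minus Lhr null was 1.91 ± 0.19 (adjusted p = 7.38e-08). Tekt3 fell (-0.46 ± 0.10) in Lhr null testes (adjusted p = 0.000792), with overlapping arrays. Tekt1, a tektin of cilia and sperm, was not called. Tekt1 had levels of 12.93, 12.93, 12.90, 12.69 and 12.98 on the double mutant arrays and 12.82, 12.63, 12.50, 12.38 and 12.58 on the Lhr null arrays. It had 12.70, 12.74, 12.72 and 12.78 on the Fshr mutant arrays and 12.83, 12.66, 12.78 and 12.86 on the wild type arrays. Lhr null replicate 1 lay within the wild type range. In Lhr null testes the difference from wild type was -0.20 ± 0.09 (adjusted p = 0.0593). It was called lower under 7 alternative settings that keep all arrays, at -0.27 with cyclic loess (adjusted p = 0.0101), -0.69 under median scaling (adjusted p = 0.00118), -0.70 with no normalization between arrays (adjusted p = 0.00449) and -0.20 to -0.24 under the other 4. It was also called lower without Lhr null replicate 1 (-0.26, adjusted p = 0.011), without wild type replicate 2 (-0.24, adjusted p = 0.0388) and without Fshr mutant/Lhr null replicate 4 (-0.20, adjusted p = 0.0485). Double mutant minus Lhr null was called for Tekt1, at 0.30 ± 0.09 (adjusted p = 0.00387). A second, dimmer Tekt1 probe overlapped between all groups. It read 12.10 to 12.37 on double mutant, 11.87 to 12.30 on Lhr null, 12.14 to 12.37 on Fshr mutant and 11.94 to 12.36 on wild type arrays.

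Dynein arms are the motors of the axoneme. Of 6 tested dynein genes, 3 fell in Lhr null testes, Dnali1, Dnal1 and Dnah17, and 3 were not called. Dnali1, a light intermediate chain of inner arms, changed most. Its log2 levels were 12.17, 12.22, 12.21, 12.38 and 12.34 on the double mutant arrays and 11.70, 11.53, 11.10, 10.96 and 11.02 on the Lhr null arrays. They were 12.25, 12.12, 12.07 and 12.29 on the Fshr mutant arrays and 12.01, 12.18, 12.06 and 12.09 on the wild type arrays. Again every Lhr null array lay below the other groups. The Lhr null minus wild type difference was -0.82 ± 0.13 (adjusted p = 1.89e-05), and a second, dimmer probe for Dnali1 gave -0.22 (adjusted p = 0.17). Double mutant minus Lhr null was 1.00 ± 0.12 (adjusted p = 8.65e-07). Dnal1, an outer arm light chain listed under its older name Dnalc1, was also lower (-0.64 ± 0.14), as was Dnah17, an outer arm heavy chain of sperm (-0.39 ± 0.09). With no normalization between arrays the Dnah17 call was lost (-0.48, adjusted p = 0.0502), as were its call and that of Dnaic2 in double mutant against Lhr null testes (0.33, adjusted p = 0.126, and 0.38, adjusted p = 0.0852). Dnaic1, an outer arm intermediate chain, had the smallest difference. It read 10.72, 10.58, 10.64, 10.55 and 10.78 on the double mutant arrays and 10.54, 10.43, 10.63, 10.56 and 10.64 on the Lhr null arrays. It read 10.50, 10.49, 10.56 and 10.60 on the Fshr mutant arrays and 10.52, 10.48, 10.14 and 10.66 on the wild type arrays. All 4 groups overlapped. Lhr null minus wild type was 0.11 ± 0.10, with a 95% interval of -0.10 to 0.31 (adjusted p = 0.332), so a fall of the size seen for Dnali1 lies outside the interval. The double mutant minus Lhr null difference was 0.10 ± 0.09 (adjusted p = 0.343), but it was called with cyclic loess (0.24, adjusted p = 0.0198) and when all its probes were averaged (0.27, adjusted p = 0.0116). Dnaic2, its partner chain, differed by -0.39 ± 0.18 (adjusted p = 0.0667), and was called at -0.57 (adjusted p = 0.00166) without Lhr null replicate 3 and at -0.61 (adjusted p = 0.00712) with cyclic loess. The sperm outer arm heavy chain Dnah8 differed by 0.17 ± 0.15 (adjusted p = 0.313). Its level was 11.58 on Lhr null replicate 3 and 10.52 to 10.86 on the other Lhr null arrays. A dimmer Dnah8 probe read 6.53 to 7.61 on Lhr null and 7.14 to 7.48 on wild type arrays. Over settings that leave out no single array the Dnah8 difference ran from -0.20 to 0.23 and was never called.

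**Figure D3:**
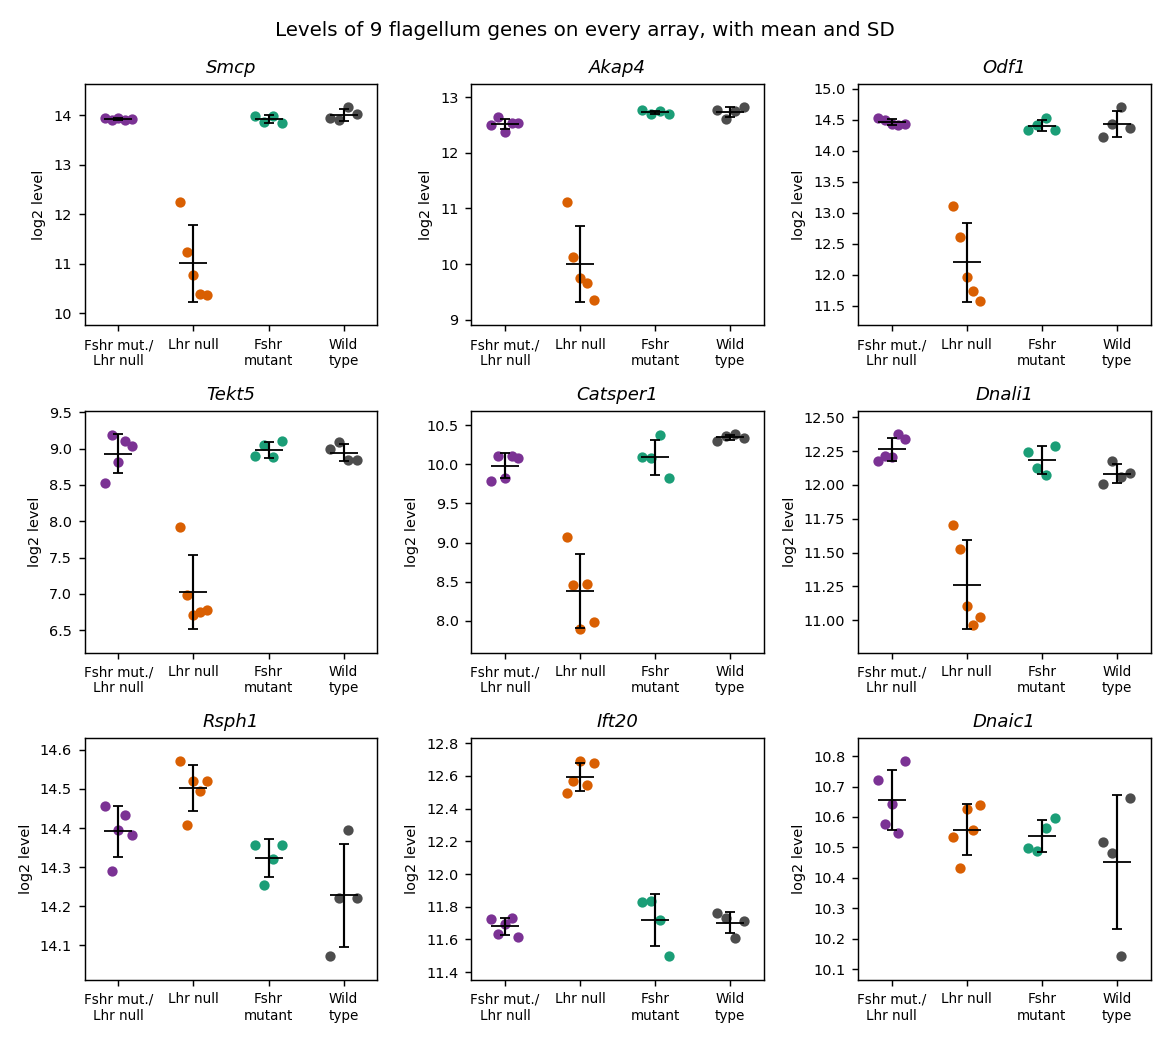
Log2 level (vertical axis, its own scale in each panel) of 9 flagellum genes on every array, with group mean and SD as black bars, for double mutant, Lhr null, Fshr mutant and wild type arrays from left to right. Smcp, Akap4, Odf1, Tekt5, Catsper1 and Dnali1 are low on the Lhr null arrays, Ift20 is high there, Rsph1 is slightly high and Dnaic1 overlaps throughout.

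The central pair and radial spokes time the beat of the axoneme. Of 5 tested genes, 3 fell and 1 rose in Lhr null testes. Spag6, a central pair protein, changed most, although its Lhr null and wild type arrays overlapped. Spag6 had log2 levels of 7.76, 7.73, 7.80, 7.46 and 8.14 on the double mutant arrays and 7.13, 6.67, 5.94, 6.29 and 6.59 on the Lhr null arrays. It had 7.56, 7.30, 7.49 and 7.90 on the Fshr mutant arrays and 7.45, 7.33, 6.57 and 7.72 on the wild type arrays. The lowest wild type array, replicate 3, lay within the Lhr null range. The gene differed between Lhr null and wild type testes by -0.74 ± 0.23 (adjusted p = 0.0079), and double mutant minus Lhr null was 1.26 ± 0.22 (adjusted p = 4.64e-05). Its probe is assigned to the gene on chromosome 2, and whether it also reads the related gene Spag6l was not tested. Hydin, another central pair protein (-0.72 ± 0.21), and Spag16 (-0.66 ± 0.10) fell too. The call of Hydin in double mutant against Lhr null testes (0.60 ± 0.20) was lost under median scaling (0.31, adjusted p = 0.241) and with no normalization between arrays (0.19, adjusted p = 0.521).

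Rsph9, a spoke head protein, had the smallest difference of this group under quantile normalization. Its levels were 11.79, 11.84, 11.78, 11.73 and 11.76 on the double mutant arrays and 11.74, 11.55, 11.41, 11.24 and 11.62 on the Lhr null arrays. They were 11.72, 11.77, 11.80 and 11.80 on the Fshr mutant arrays and 11.53, 11.62, 11.79 and 11.68 on the wild type arrays. Lhr null replicates 1, 2 and 5 lay within the wild type range and the other 2 Lhr null arrays below it. In Lhr null testes the difference from wild type was -0.14 ± 0.09 (adjusted p = 0.173), while a second Rsph9 probe gave -0.37 (adjusted p = 0.00634) and the mean of both probes -0.25 (adjusted p = 0.0193). The difference was also called with cyclic loess (-0.32, adjusted p = 0.00515), under median scaling (-0.59, adjusted p = 0.00384), with no normalization between arrays (-0.61, adjusted p = 0.0157) and without Lhr null replicate 1 (-0.20, adjusted p = 0.0487). Against Lhr null, double mutant testes differed by 0.27 ± 0.09 (adjusted p = 0.0103), a call lost with no normalization (0.42, adjusted p = 0.0557). Rsph1, a spoke head protein that is abundant in male germ cells from meiosis on, went the other way. Rsph1 had log2 levels of 14.46, 14.29, 14.40, 14.43 and 14.38 on the double mutant arrays and 14.57, 14.41, 14.52, 14.50 and 14.52 on the Lhr null arrays. It had 14.36, 14.25, 14.32 and 14.36 on the Fshr mutant arrays and 14.07, 14.22, 14.40 and 14.22 on the wild type arrays. Every Lhr null array lay above every wild type array, by a narrow margin, and the double mutant arrays overlapped both. The Lhr null minus wild type difference was 0.28 ± 0.08, 1.21-fold higher (adjusted p = 0.00388), and this call was lost under median scaling (0.16, adjusted p = 0.345) and with no normalization between arrays (0.14, adjusted p = 0.503). With cyclic loess it was 0.81. The median of all genes was 0.21 under quantile normalization, 0.02 with cyclic loess, 0.13 under median scaling and 0.12 with no normalization, so the size of the Rsph1 difference relative to other genes depends on the scaling. Double mutant minus Lhr null was -0.11 ± 0.07 (adjusted p = 0.172), and with cyclic loess it was called, at -0.55 (adjusted p = 4.88e-06).

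Intraflagellar transport carries building material along growing cilia and tails. Ift20, a transport protein that also sits at the Golgi, was the flagellum gene that rose most. Its levels were 11.73, 11.63, 11.70, 11.73 and 11.62 on the double mutant arrays and 12.49, 12.57, 12.69, 12.54 and 12.68 on the Lhr null arrays. They were 11.83, 11.84, 11.72 and 11.50 on the Fshr mutant arrays and 11.76, 11.73, 11.61 and 11.71 on the wild type arrays. The Lhr null arrays lay above all others with no overlap. Lhr null minus wild type was 0.89 ± 0.08, 1.85-fold higher (adjusted p = 6.17e-08), and double mutant minus Lhr null was -0.91 ± 0.08 (adjusted p = 1.92e-08). A second Ift20 probe gave 0.90 and another 0.35 (adjusted p = 0.286) for Lhr null minus wild type. The call was lost with no normalization between arrays (0.36, adjusted p = 0.108). Ift88, a core transport protein needed for tail assembly in mice, was not called. Ift88 had log2 levels of 10.05, 10.08, 10.07, 9.94 and 10.09 on the double mutant arrays and 9.96, 9.97, 10.06, 9.88 and 10.23 on the Lhr null arrays. It had 9.85, 9.77, 9.96 and 9.96 on the Fshr mutant arrays and 9.88, 10.02, 9.82 and 10.02 on the wild type arrays. The 4 groups overlapped, and Lhr null minus wild type was 0.09 ± 0.08, with a 95% interval of -0.09 to 0.26 (adjusted p = 0.372).

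Channels, pumps and the sperm adenylyl cyclase drive motility by calcium, membrane potential and cAMP. Of 6 tested genes, 5 fell in Lhr null testes. Catsper1, a pore subunit of the CatSper calcium channel, fell most. Its log2 levels were 9.79, 10.11, 9.83, 10.11 and 10.08 on the double mutant arrays and 9.08, 8.46, 7.89, 8.47 and 7.98 on the Lhr null arrays. They were 10.09, 10.09, 10.37 and 9.82 on the Fshr mutant arrays and 10.31, 10.36, 10.39 and 10.34 on the wild type arrays. The Lhr null arrays lay below all others, and the double mutant arrays, at up to 10.11, lay below the lowest wild type array at 10.31. The gene differed between Lhr null and wild type testes by -1.97 ± 0.18 (adjusted p = 5.45e-08) and double mutant minus Lhr null was 1.61 ± 0.17 (adjusted p = 1.84e-07). Double mutant minus wild type was -0.36 ± 0.18 and was not called (adjusted p = 0.324). Other pore subunits, Catsper4 and Catsper3, also fell in Lhr null testes (-1.30 ± 0.16 and -1.20 ± 0.17). The soluble adenylyl cyclase Adcy10 (-1.29 ± 0.14) and the sperm potassium channel Kcnu1 (-1.61 ± 0.42) fell, with overlapping arrays for Kcnu1.

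Catsper2, a pore subunit of the same channel, was not called under quantile normalization. It had levels of 12.69, 12.70, 12.67, 12.57 and 12.60 on the double mutant arrays and 12.65, 12.45, 12.46, 12.49 and 12.56 on the Lhr null arrays. It had 12.63, 12.57, 12.65 and 12.61 on the Fshr mutant arrays and 12.35, 12.83, 12.60 and 12.42 on the wild type arrays. The groups overlapped throughout. In Lhr null testes the difference from wild type was -0.03 ± 0.09 for Catsper2, with a 95% interval of -0.22 to 0.16 (adjusted p = 0.781), an interval that excludes the falls of the other 3 CatSper genes. Under median scaling the same difference was -0.54 (adjusted p = 0.00323) and with no normalization between arrays -0.55 (adjusted p = 0.0165). The double mutant minus Lhr null difference was 0.13 ± 0.09 (adjusted p = 0.191), and it was called with cyclic loess (0.20, adjusted p = 0.0479) and under median scaling (0.47, adjusted p = 0.00474).

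The last 2 genes are products of late spermatids. Smcp, a cysteine-rich protein of the mitochondrial capsule in the midpiece, had the largest change of all 34 genes in both comparisons that use the Lhr null arrays. Its log2 levels were 13.94, 13.91, 13.94, 13.91 and 13.93 on the double mutant arrays and 12.25, 11.24, 10.77, 10.40 and 10.38 on the Lhr null arrays. They were 13.99, 13.86, 13.99 and 13.85 on the Fshr mutant arrays and 13.96, 13.90, 14.17 and 14.02 on the wild type arrays. All Lhr null arrays were far below the others, and replicate 1 was the highest of them. The Lhr null minus wild type difference was -3.00 ± 0.26, 8.01-fold lower (adjusted p = 2.76e-08), and -3.31 without Lhr null replicate 1. Double mutant minus Lhr null was 2.92 ± 0.24, 7.55-fold higher (adjusted p = 1.44e-08). Oaz3, a testis antizyme that limits polyamine synthesis and locates to the tail, followed the same order. Oaz3 had log2 levels of 13.63, 13.63, 13.81, 13.69 and 13.57 on the double mutant arrays and 12.53, 11.88, 11.10, 10.93 and 10.63 on the Lhr null arrays. It had 13.67, 13.71, 13.68 and 13.55 on the Fshr mutant arrays and 13.85, 13.76, 13.19 and 13.84 on the wild type arrays. Wild type replicate 3 was the lowest of its group but above every Lhr null array. Lhr null minus wild type was -2.25 ± 0.27 (adjusted p = 9.31e-07) and double mutant minus Lhr null was 2.25 ± 0.26 (adjusted p = 3.78e-07).

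**Figure D4:**
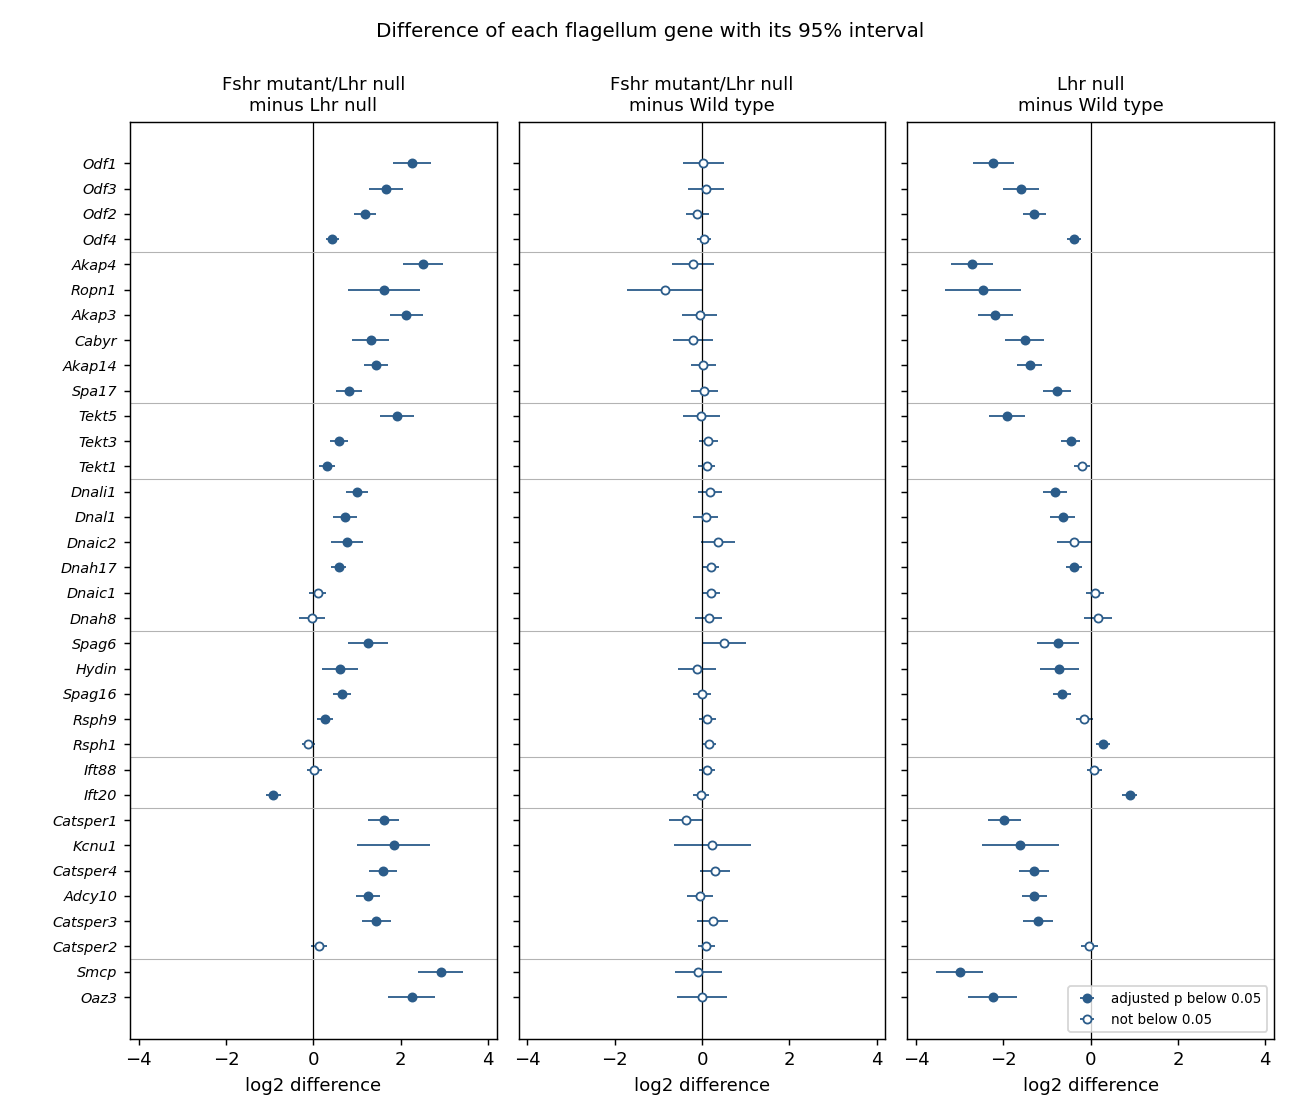
Log2 difference (horizontal axis) of each flagellum gene (rows, grouped by role) with its 95% interval, for double mutant minus Lhr null, double mutant minus wild type and Lhr null minus wild type; filled points had an adjusted p below 0.05. Most points of the outer panels are filled, mainly to the right for double mutant minus Lhr null and to the left for Lhr null minus wild type. Ift20 is filled on the opposite side in both, as is Rsph1 in Lhr null minus wild type. The middle panel has no filled point.

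The 2 arrays noted at the outset moved these values by different amounts. Leaving out the array labelled as Fshr mutant/Lhr null replicate 2 changed 0 calls among the 34 genes in the 3 comparisons of double mutant testes and in the interaction, and the largest move was 0.06 on the log2 scale (Tekt5). The difference from Lhr null in double mutant testes was then 2.25 for Odf1, 0.43 for Odf4, 2.48 for Akap4, 1.84 for Tekt5, 1.01 for Dnali1, 1.27 for Spag6, -0.90 for Ift20, 1.58 for Catsper1, 2.92 for Smcp and 2.26 for Oaz3. Without Lhr null replicate 1, the largest move was 0.31 (Smcp), and every gene listed next kept its call. In that case Lhr null minus wild type was -2.46 for Odf1, -0.41 for Odf4, -3.01 for Akap4, -2.15 for Tekt5, -0.93 for Dnali1, -0.89 for Spag6, 0.92 for Ift20, -2.15 for Catsper1, -3.31 for Smcp and -2.52 for Oaz3. For double mutant minus Lhr null it was 2.49 for Odf1, 0.46 for Odf4, 2.79 for Akap4, 2.13 for Tekt5, 1.11 for Dnali1, 1.41 for Spag6, -0.94 for Ift20, 1.79 for Catsper1, 3.23 for Smcp and 2.53 for Oaz3, with 0 calls changed among the 34 genes. The interaction without it had a median of 1.10 and 1 changed call, that of Hydin.

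The members of the 8 role groups differed in size of change. The median log2 difference of Lhr null minus wild type was -2.62 for the 2 midpiece and spermatid products, -1.85 for the fibrous sheath, -1.44 for the outer dense fibres, -1.29 for channels and cyclase, -0.66 for central pair and spokes, -0.46 for tektins and -0.39 for dynein arms. For the 2 transport genes it was 0.49. The 34 genes together had 16 with a difference below -1. Of the 25 called lower, 21 had no array overlap between Lhr null and wild type testes (21.9% of all genes were lower without overlap), and the exceptions were Tekt3, Spag6, Hydin and Kcnu1. Between double mutant and Lhr null testes, 24 of the 28 called higher had no array overlap (22.9% of all genes were higher without overlap). Both of these counts include Spa17, which was detected on no Lhr null array. Single probes gave a like split: of the 59 flagellum probes that passed the filter, 40 were called lower and 3 higher in Lhr null against wild type testes (27.5% and 41.3% of all probes), and 46 were called higher and 3 lower in double mutant against Lhr null testes (30.1% and 42.5% of all probes). Of 14 genes with several probes, 9 had the same call on each in the first comparison. Ift20 and Rsph1 were higher without overlap, as were 35.3% of all genes.

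Levels varied more among the Lhr null arrays than within other groups. The median SD over the 34 genes was 0.09 among double mutant, 0.37 among Lhr null, 0.12 among Fshr mutant and 0.13 among wild type arrays. The SD was largest in the Lhr null group for 24 of the 34 genes. The fitted model shares its estimate of spread over all groups. For such genes, the SEs and p-values of comparisons with Lhr null testes can therefore be too small. Of the 25 genes called lower, 22 were highest on replicate 1 among the 5 Lhr null arrays. The mean of 6 elongating spermatid markers was 11.92 on that array and 9.89 to 11.01 on the other 4 Lhr null arrays, and its part in these values was not tested.

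The Fshr mutation alone was not followed by a call in any flagellum gene. Limma called 0 of 34 genes for Fshr mutant minus wild type, where 0% of all genes were called and 437 of 10798 had an unadjusted p below 0.05, none of them a flagellum gene. The differences ranged from -0.36 for Ropn1 to 0.29 for Spag6, with a median of 0.02. Dnah17 was the one gene without overlap, higher by 0.18 ± 0.09 in Fshr mutant testes (adjusted p = 1), as were 1.97% of all genes, and 0 flagellum genes were lower without overlap, against 1.51% of all genes. The median half-width of the 95% intervals was 0.33. The model shares its estimate of spread over all groups, so the more variable Lhr null arrays widen these intervals too.

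Double mutant and wild type testes were compared next. Of 34 genes, 0 were called for double mutant minus wild type (1.28% of all genes were called), and the median difference was 0.07. At an unadjusted p below 0.05 there were 4, Dnah17, Dnaic1, Spag6 and Rsph1, each higher in double mutant testes by 0.16 to 0.51, beside 1762 of all 10798 genes. Groups did not overlap for Catsper1, which was lower (4.02% of all genes), and for Dnah17 and Catsper3, which were higher by 0.20 ± 0.09 and 0.24 ± 0.17 (4.42% of all genes). Leaving out the array labelled as Fshr mutant/Lhr null replicate 2, the count was 0 again and the smallest adjusted p was 0.277. Against Fshr mutant testes, 0 of 34 genes were called in double mutant testes (0.0278% of all genes), with differences of -0.49 for Ropn1 to 0.40 for Kcnu1. Of the 34, 0 had an unadjusted p below 0.05 there, beside 684 of all 10798 genes. The p-values against wild type and Fshr mutant testes also use the shared spread, which includes the more variable Lhr null arrays. A count of 0 there does not show equal levels. Fitting only the groups compared called no flagellum gene in these comparisons either. Groups did not overlap for Akap4, which was lower in double mutant testes (1.47% of all genes), and for Catsper4, which was higher (1.41% of all genes).

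The interaction asked whether the Fshr mutation changed levels by a different amount on the Lhr null background than on the wild type background. It was called for 26 of 34 genes, 25 positive and 1 negative, where 23.2% of all genes were positive and 36.9% negative. Smcp had the largest at 3.00 ± 0.36 (adjusted p = 4.85e-06), followed by Akap4 at 2.52 ± 0.32 and Odf1 at 2.29 ± 0.31, and Ift20 was the negative one at -0.93 ± 0.12 (adjusted p = 6.93e-06). The 8 genes not called were Dnah8, Dnaic1, Dnaic2, Rsph1, Rsph9, Hydin, Ift88 and Catsper2. Leaving out the array labelled as Fshr mutant/Lhr null replicate 2 the counts were the same, 25 positive and 1 negative. Single arrays decided 4 calls: Tekt1 was not called without wild type replicate 4 (0.32, adjusted p = 0.0533), and Hydin without Lhr null replicate 1 (0.74, adjusted p = 0.0319), Dnaic2 without Lhr null replicate 3 (0.74, adjusted p = 0.0037) and Rsph1 without wild type replicate 3 (-0.26, adjusted p = 0.0418) became called. Scaling moved more: 30 of 34 were called with cyclic loess, 24 under median scaling and 21 with no normalization between arrays. With cyclic loess Rsph1 was also negative and called (-0.74, adjusted p = 4.64e-05). With no normalization the calls of Ift20 (-0.56, adjusted p = 0.0959), Tekt1 (0.69, adjusted p = 0.052) and Tekt3 (0.68, adjusted p = 0.053) were lost. Those of Dnah17 and Spag6 were lost both there (0.32, adjusted p = 0.384, and 0.75, adjusted p = 0.0667) and under median scaling (0.34, adjusted p = 0.203, and 0.77, adjusted p = 0.0517). Averaging all Tekt1 probes ended its call as well (0.19, adjusted p = 0.182). The positive count includes Spa17, whose value rests on Lhr null arrays where it was not detected.

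Other flagellum genes outside the 43 were counted from lists of the same kinds. In 50 other axoneme genes, 26 fell and 3 rose in Lhr null testes, with a median of -0.25, beside 27.0% lower, 44.2% higher and a median of 0.21 for all genes. The falls with the smallest adjusted p were Klhl10 (-2.07 ± 0.20), a ubiquitin ligase adaptor of spermatids rather than a structural protein, Cfap221 (-1.10 ± 0.11), a central pair protein, and Efhc2 (-1.61 ± 0.17) and Cfap58 (-0.86 ± 0.09), an axoneme and a sperm tail protein. The 3 that rose were Ccdc39 (0.33 ± 0.10), a ruler protein of the doublets, Zmynd10 (0.31 ± 0.11), a dynein assembly factor, and Rsph3a (0.34 ± 0.13), a spoke protein. In double mutant against Lhr null testes 32 of the 50 rose and 3 fell, with a median of 0.33, beside 29.3% higher, 45.0% lower and a median of -0.21 for all genes.

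Among 22 other genes of accessory structures and motility, 15 fell and 2 rose in Lhr null testes, with a median of -0.70. Of all genes, 27.0% were called lower and 44.2% higher, with a median of 0.21. Spata18, a mitochondrial protein of spermatids (-3.44 ± 0.28), Gapdhs, the sheath-bound glycolytic enzyme of sperm (-2.89 ± 0.26), Tcp11, a tail protein (-1.50 ± 0.14) and the sperm glycolytic enzyme Pgk2 (-1.34 ± 0.13) had the falls of smallest adjusted p. Septin12, a ring protein of the sperm tail, rose by 0.32 ± 0.13. Catsperb, an auxiliary CatSper subunit, rose by 0.36 ± 0.14 and was detected on 4 of 5 Lhr null and 2 of 4 wild type arrays. In double mutant against Lhr null testes 14 of these 22 rose and 0 fell, with a median of 0.91. Of all genes, 29.3% were called higher and 45.0% lower there.

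In the transport list more genes rose than fell, as among all genes. Of 22 other intraflagellar transport genes, 3 fell and 10 rose in Lhr null testes, beside 27.0% lower and 44.2% higher for all genes, with a median of 0.20 against 0.21 for all genes. Kifap3, which joins the transport motor to its load (-1.82 ± 0.18), Ift172 (-0.77 ± 0.09) and the motor Kif17 (-0.83 ± 0.18) were the 3 that fell. Those that rose with the smallest adjusted p were Ift81 by 0.73 ± 0.13, Ift80 by 0.58 ± 0.11, the motor chain Dync2li1 by 0.57 ± 0.10 and Traf3ip1 by at least 1.38-fold, which was detected on 5 of 5 Lhr null and 0 of 4 wild type arrays. In double mutant against Lhr null testes 4 of the 22 rose and 9 fell, with a median of -0.07. Of all genes, 29.3% were called higher and 45.0% lower there, with a median of -0.21.

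Spermatid markers moved in the same direction as most flagellum genes. The summed linear intensity of the 34 flagellum genes was 162095 to 163756 on double mutant, 80062 to 110904 on Lhr null, 156010 to 165001 on Fshr mutant and 156571 to 163956 on wild type arrays. All 6 tested elongating spermatid markers and 7 of 8 round spermatid markers fell in Lhr null testes. Of all genes, 27.0% were called lower and 44.2% higher. Summed elongating spermatid markers read 56305 to 62304 on double mutant, 16647 to 45361 on Lhr null, 60193 to 64992 on Fshr mutant and 52202 to 68973 on wild type arrays. Summed round spermatid markers read 25418 to 28258 on double mutant, 10495 to 17390 on Lhr null, 23553 to 27066 on Fshr mutant and 24293 to 27071 on wild type arrays.

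Markers of earlier and somatic cells did not all follow the spermatid markers, and their counts stand beside 27.0% lower and 44.2% higher for all genes. Sertoli cell markers rose for 7 of 7 in Lhr null testes, with sums of 9001 to 10558 on double mutant, 18290 to 26236 on Lhr null, 9288 to 10017 on Fshr mutant and 8884 to 10610 on wild type arrays. Of 6 spermatogonia markers 5 rose. Their sums were 1746 to 1966 on double mutant, 3917 to 5614 on Lhr null, 1796 to 2231 on Fshr mutant and 1846 to 2092 on wild type arrays. Stra8, among the 6, was detected on no double mutant, Fshr mutant or wild type array. It passed the filter only through Lhr null arrays, where it was high. Of 7 spermatocyte markers 4 rose and 1 fell, with sums of 11130 to 12072 on double mutant, 17248 to 20008 on Lhr null, 11174 to 12075 on Fshr mutant and 10745 to 12058 on wild type arrays. These germ cells precede the spermatid stages in which the tail is built. Leydig cell markers fell for 5 of 5, with sums of 3276 to 11040 on double mutant, 966 to 1904 on Lhr null, 11820 to 14609 on Fshr mutant and 13549 to 19034 on wild type arrays, and Star and Hsd17b3 were detected on no Lhr null array. The double mutant maximum of that list came from the array that goes against its label. Macrophage markers fell for 4 of 7, with sums of 4078 to 4471 on double mutant, 1068 to 2297 on Lhr null, 4128 to 4822 on Fshr mutant and 4382 to 5450 on wild type arrays. Of 4 peritubular myoid markers 2 rose and 1 fell, and 1 of 2 epididymis markers and 1 of 2 red blood cell markers fell. Motile cilia of the testis ducts use many of the same axoneme genes. Of 5 ciliated duct markers 2 passed the filter and both fell, at low sums of 142 to 180 on double mutant, 88.7 to 116 on Lhr null, 129 to 169 on Fshr mutant and 105 to 177 on wild type arrays. The part of cell composition in the flagellum results was not tested.

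**Figure D5:**
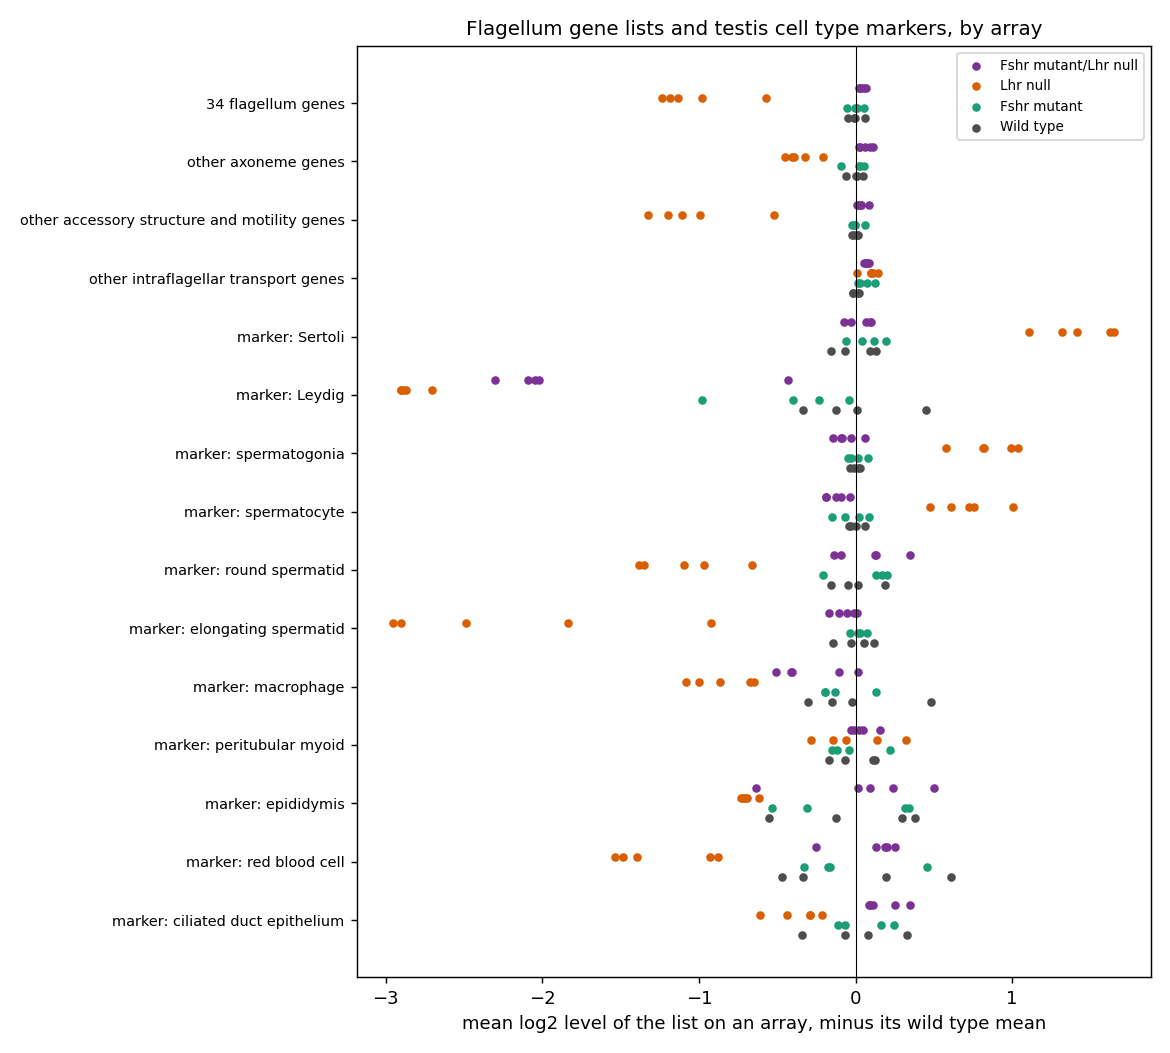
Mean log2 level of each gene list on each array, minus its wild type mean (horizontal axis), for the 34 flagellum genes, the other flagellum lists and testis cell type markers (rows); points are arrays coloured by group, from top to bottom double mutant, Lhr null, Fshr mutant and wild type. On the Lhr null arrays the flagellum, accessory and spermatid lists lie below 0, the Sertoli, spermatogonia and spermatocyte lists above 0, and the other transport genes near 0.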

How the data were processed

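Whole testis RNA was read on 18 Illumina arrays. The deposited table holds, per the file headers, a mean bead intensity, a bead count, a bead standard error and a detection p-value for each of 45281 probes, made with GenomeStudio 1.7.0 per the submitters' processing notes. The values that the authors processed themselves, a deposited linear intensity whose normalization is not stated, served as an alternative. Probes were named through the platform annotation, updated by gene ID: 34885 had 1 symbol, 18 several and 10378 none, and only the first were used.

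Intensities were background corrected with normexp from the detection p-values (offset 16), quantile normalized and put on a log2 scale in limma 3.58.1 under R 4.3.3. Probes with a detection p-value below 0.01 on at least 4 arrays were kept (19076), and the probe of highest mean stood for a gene. All 4 group means were fitted in 1 model over 18 arrays, with Benjamini-Hochberg adjustment over 10798 genes. The procedure was run on simulated data with the same spread in every group and few changed genes. That does not test it for the wider Lhr null spread or the many genes called here. Alternatives covered background, normalization, filter, probe choice, weights, the replicate number as a block and each array left out. Slide was not used as a block, since no slide was given in the sources used here.

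The 43 genes and all other lists were chosen with earlier results of these data known. Each role group's genes of largest and smallest difference between Lhr null and wild type, those called against the majority, and the brightest and dimmest genes were given array by array. Up to 4 genes a direction were named from each other list, by adjusted p. Samples with equal replicate numbers were not paired: over 25 such pairs the correlation of their deviations from group means ran from -0.316 to 0.215, with 5 above 0.1.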

Additional observations from a re-analysis of the deposited data

Results flagged for a closer look

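The effect of the Fshr mutation differed between the Lhr null and the wild type background for 26 flagellum genes by limma's test of the interaction (adjusted p below 0.05). By the same test 23.2% of all genes were called positive and 36.9% negative. The interaction contains double mutant minus Lhr null, so it is not independent of that comparison. The values are log2 differences of differences, the effect on the Lhr null background minus that on the wild type background. For outer dense fibre genes it was 2.29 for Odf1, 1.28 for Odf2, 1.64 for Odf3 and 0.39 for Odf4. For fibrous sheath genes it was 2.21 for Akap3, 2.52 for Akap4, 1.38 for Akap14, 1.97 for Ropn1, 1.33 for Cabyr and 1.07 for Spa17. The Spa17 value is a fitted one that rests on Lhr null arrays where the gene was not detected, so its size is not measured. Tektins had 0.35 for Tekt1, 0.47 for Tekt3 and 1.87 for Tekt5, and dynein genes had 0.40 for Dnah17, 0.90 for Dnali1 and 0.80 for Dnal1. Central pair genes had 0.96 for Spag6 and 0.69 for Spag16. The transport gene Ift20 had -0.93, the only negative value of the 26. Channel and cyclase genes had 1.87 for Catsper1, 1.41 for Catsper3, 1.51 for Catsper4, 2.01 for Kcnu1 and 1.23 for Adcy10. The midpiece and spermatid products had 3.00 for Smcp and 2.26 for Oaz3. 

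On 4 occasions among 136 group tests, a single array stood far from the others of its group by Dixon's criterion, which chance gives about 1 time in 20. Odf3 was high on wild type replicate 2 at a log2 level of 12.65, and the other wild type arrays read 12.43 to 12.46. Tekt1 was low on Fshr mutant/Lhr null replicate 4 at 12.69, and the other double mutant arrays read 12.90 to 12.98. Tekt5 was high on Lhr null replicate 1 at 7.92, and the other Lhr null arrays read 6.70 to 6.98. Oaz3 was low on wild type replicate 3 at 13.19, and the other wild type arrays read 13.76 to 13.85.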

How the results depend on the processing

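Over 31 alternative settings and 6284 single-gene values for the flagellum genes, 0 called values changed direction, 33 values gained a call and 18 lost one, 12 of the 18 with no normalization between arrays. The numbers of flagellum genes called with each array left out ran from 27 to 29 for Lhr null minus wild type, from 29 to 29 for double mutant minus Lhr null and from 25 to 27 for the interaction, and stayed at 0 in the other 3 comparisons. With cyclic loess, median scaling and no normalization they were 30, 29 and 27 for Lhr null minus wild type, 32, 29 and 25 for double mutant minus Lhr null and 30, 24 and 21 for the interaction. Array weights called 1 flagellum gene, Ropn1, for double mutant minus wild type.

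Counts over all genes moved more. Double mutant minus Fshr mutant called 3 genes, against 1 with cyclic loess, 10 with no normalization, 0 with no filter on dim probes, 5 with the mean of a gene's probes, 79 with array weights, 1 with the compared groups only and 1 with the replicate number as a block. Fshr mutant minus wild type called 0, against 1 with median scaling, 2 with no normalization, 3 with probes detected on all arrays of a group, 6 with array weights and 3 with the compared groups only. Double mutant minus wild type called 138, against 844 with array weights and 21 with the replicate block. The interaction called 6488, against 4254 with no normalization. With each array left out these counts ran from 0 to 57, from 0 to 4, from 0 to 210 and from 6165 to 6761; the 57 was without Fshr mutant/Lhr null replicate 2, the 0 for double mutant minus wild type without wild type replicate 3 and the 210 without Lhr null replicate 4. Lhr null minus wild type ran from 7276 to 7732 genes and double mutant minus Lhr null from 7769 to 8082.

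Scaling moved the split of calls. Of genes called for Lhr null minus wild type, 62% were higher, against 50.6% with cyclic loess, 56.1% with median scaling and 53.3% with none, and the median of all genes was 0.21, 0.02, 0.13 and 0.12. For double mutant minus Lhr null 39.4% were higher, against 48.3%, 33.3% and 27.9%, for the interaction 38.6%, against 50.3%, 38% and 39.7%, and for double mutant minus wild type 34.1%, against 26.8%, 2.38% and 1.33%. The cause of these shifts was not tested. The replicate block left the counts of flagellum genes called at 27, 29 and 26 in the comparisons with calls; 6 of 18 arrays correlated best with an array of their own number. The number of arrays limits what can be seen, and Spa17 was near background.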
